A study of Mus musculus with 46 samples.

Results

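Macrophages of 2 kinds, microglia (MG) and those derived from the bone marrow (BMDM), were compared within gliomas that had regrown after radiation (IR) combined with BLZ945, a compound that blocks the kinase of the CSF1 receptor. The libraries were chosen by their labels, which name the treatment IR-BLZ945 and the recurrent stage: 4 MG and 4 BMDM libraries from mice 67169, 67543, 67947 and 68362, or 8 of the 46 libraries and 4 of the 23 mice in the series. Each mouse gave 1 library of each population, so that the comparison is made within the tumour of an animal. The wider series asked how both populations respond to therapy in regressing and in regrowing tumours.

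All mice of the groups used here were nTVA animals lacking both copies of Ink4a/Arf, the locus Cdkn2a, and had received DF1 cells producing RCAS-PDGFB-HA in the right frontal cortex at 6 weeks of age. DF1 is a chicken fibroblast line that sheds the retrovirus, and the virus can enter only cells that carry its receptor, here supplied under the nestin promoter. The other groups used for comparison were 4 mice given vehicle, 4 mice with tumours recurring after IR alone and 3 mice taken after 5 days of IR+BLZ945. Both populations came from the CD45+CD11b+ cells negative for Ly6C and Ly6G, and were split by CD49d, the integrin encoded by Itga4, which BMDM carry and MG lack. A difference in Itga4 therefore checks the sort and is no finding. The sort sets cells apart by 1 surface protein and does not trace where a cell came from.

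Microglia are the resident macrophages of the brain. They settle there before birth, renew themselves locally, depend on signalling through the CSF1 receptor and keep an identity set by transcription factors such as Sall1. BMDM reach a tumour as circulating monocytes, which use the chemokine receptor Ccr2 to leave the blood, and in tissue they can take on features of macrophages or of antigen-presenting cells. MHC class II molecules carry peptides from engulfed proteins to the surface for CD4 T cells, and their genes share promoter elements that are read by the coactivator Ciita.

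The 8 libraries held between 8402857 and 12623745 counts, and between 11409 and 12313 genes in each had 10 or more counts. Correlations of log2 levels across genes, which are not independent replicates, were 0.956 to 0.968 between MG libraries, 0.959 to 0.98 between BMDM libraries and 0.917 to 0.948 between the populations. The first principal component, with 42.2% of the variance, separated the populations. Levels below are log2 CPM, where CPM is counts per 1e6 scaled counts of a library, and values for 4 mice are always given in the order 67169, 67543, 67947 and 68362. A difference is the log2 fold change of MG minus BMDM ± an approximate standard error, tested in edgeR by quasi-likelihood with each mouse as a block. Its p was adjusted by the Benjamini-Hochberg method over 15901 genes. The standard error is the size of the fold change divided by the square root of the F statistic of that test. "Higher" and "lower" without further words mean an adjusted p under 0.05. In sorted bulk RNA, fewer cells of a type and less RNA per cell cannot be told apart.

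In recurrence after IR+BLZ945, 297 genes (1.87% of those tested) were higher in MG and 442 (2.78%) were lower, together 4.65%. All 739 went the same way in all 4 mice. A test within mice selects for such agreement, which is therefore no separate support. For 278 of the higher and 418 of the lower genes, the 4 MG and 4 BMDM libraries did not overlap. Over all tested genes, the libraries did not overlap for 9.55% with MG on the higher side and for 10.8% with MG on the lower side. The 10 genes with the largest positive differences were Thrsp, Upk1b, Hspb3, Mlph, the fructose transporter Slc2a5, the B cell chemoattractant Cxcl13, the lectin Siglech, the lens crystallin Crybb1, Unc5cl and Naalad2, with differences from 4.23 (Naalad2) to 4.93 (Thrsp). The 10 largest negative differences were in the adhesion receptor Emr4 (now Adgre4), Igj (now Jchain, the joining chain of immunoglobulins), Dock5, the lectin Cd209a, the chemokine receptor Ccr7, the serotonin receptor Htr7, Ramp3, Atp8b4, the cadherin Cdh1 and the peptidase Dpp4. Emr4 had 0 counts in MG and 876 in BMDM, which makes it at least 227-fold lower in MG when its MG are set to 3 counts in all. The other 9 ran from -5.02 (Dpp4) to -6.63 (Igj), and in Igj the BMDM library of mouse 68362, at 8.75, stood far above the BMDM of the others, at 3.40, 2.75 and 2.80. Without that mouse, or without 67169, Igj did not pass. Unc5cl and Naalad2 did not pass without any 1 of the 4 mice, and Hspb3 and Htr7 did not pass without mouse 68362.

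The number of genes called differed between fits. It was 3356 when only these 4 mice were fitted, 2107 when 5 doubted mice of other stages were left out (a library with fewer than 11000 genes at 10 or more counts, or libraries of a mouse that do not match in sex-linked genes), 1532 with DESeq2, and 479, 438, 388 and 342 without mouse 67169, 67543, 67947 or 68362. Lars2 and the rRNA transcript Rn45s were higher in MG than in BMDM of each mouse, although neither passed. Lars2 stood at 14.20, 15.22, 12.79 and 13.67 in MG and at 12.98, 12.96, 11.81 and 11.43 in BMDM, and Rn45s at 13.83, 14.86, 12.12 and 13.31 against 11.95, 12.11, 11.08 and 10.85. With the Lars2 level as a term in the model, a setting chosen after seeing the data, 397 genes passed, of which 381 were among the 739.

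**Figure D1:**
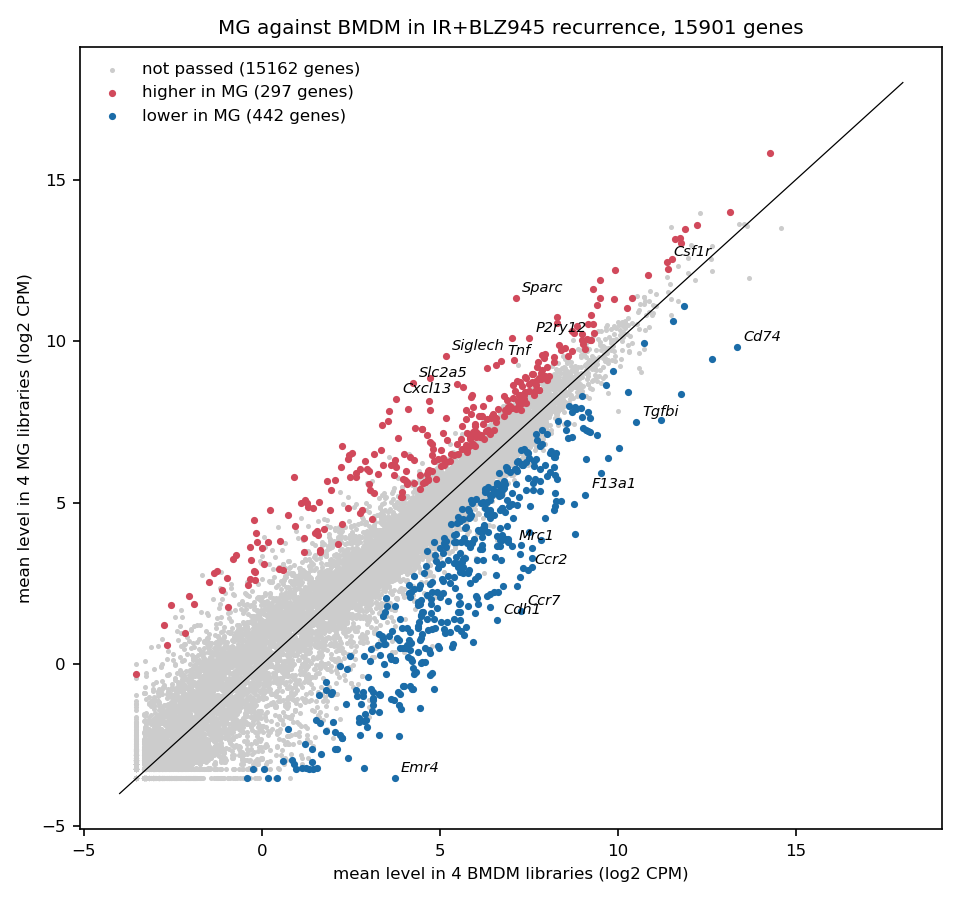
Mean level of each of 15901 genes in the 4 BMDM libraries (horizontal axis, log2 CPM) against the 4 MG libraries (vertical axis, log2 CPM). Red points are the 297 genes higher in MG, blue points the 442 genes lower in MG, grey points did not pass, and the line marks equal levels; Sparc and Siglech lie far above the line and Cd74, Ccr7 and Emr4 far below it.

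Markers of both populations followed the sort. In the list of 20 genes that mark microglia, 16 passed, each on the MG side, with a median difference of 2.45 where the median over all genes was 0.00. Siglech (chr7:55768154-55779448, GRCm38.p6) stood at 9.90, 8.75, 9.51 and 10.02 in MG and at 5.04, 4.23, 5.35 and 6.00 in BMDM. Every MG library was thus above every BMDM library, with a difference of 4.39 ± 0.33 (adjusted p = 1.16e-07). The purinergic receptor P2ry12, which steers microglial processes toward injury, stood at 10.06, 9.33, 10.22 and 10.80 against 7.59, 6.96, 7.74 and 7.70 (2.60 ± 0.36, adjusted p = 9.15e-05). Gpr34, a lysophospholipid receptor, differed by 3.08 ± 0.31, and Sparc, a secreted matrix-binding protein, by 4.18 ± 0.49, again with no overlap. The transcription factor Sall1 was nearly level among MG, at 6.54, 6.33, 6.42 and 6.64, and spread widely among BMDM, at 1.39, 0.61, 3.42 and 4.34. Its difference was 3.97 ± 0.89 (adjusted p = 0.00885) and did not pass without mouse 67169 or 67543, nor did that of its relative Sall3 without any of the 4 mice.

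The 4 microglia genes that did not pass were Cx3cr1, Fcrls, Mef2c and Tgfbr1. Cx3cr1, the fractalkine receptor often used to mark microglia, stood at 10.52, 9.94, 10.58 and 10.36 in MG and at 9.81, 9.12, 10.05 and 9.64 in BMDM. The ranges overlapped although MG were higher in each mouse, and the difference was 0.70 ± 0.29 (adjusted p = 0.215). Tmem119, another common microglia marker, was present at 9.75, 9.28, 9.67 and 8.90 in BMDM, below the 11.01, 11.34, 11.06 and 11.03 of MG (1.71 ± 0.38). It did not pass without mouse 67543 or 68362, or with the Lars2 term.

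Of 22 genes of blood-derived macrophages, 12 were lower in MG and none higher (median -1.97). Itga4, the gate's own gene, stood at 1.14, 1.56, 1.98 and 1.65 in MG and at 5.54, 5.53, 6.11 and 6.77 in BMDM, so that no library went against its label. Ccr2, the receptor for entry from the blood, stood at 2.25, 3.81, 2.42 and 3.14 in MG against 7.26, 7.80, 6.76 and 8.12 in BMDM (-4.59 ± 0.59, adjusted p = 6.11e-05). Tgfbi, a secreted adhesion protein, differed by -3.02 ± 0.29, the large scaffold protein Ahnak by -4.22 ± 0.54 and the inhibitory lectin Clec12a by -4.68 ± 0.64, each with no overlap. Lyz2, Fn1, Vcan and Lgals3 were among the 10 that did not pass. The other gate genes Ptprc (CD45; -0.79 ± 0.26, adjusted p = 0.0952) and Itgam (CD11b; 0.82 ± 0.35, adjusted p = 0.245) did not pass.

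**Figure D2:**
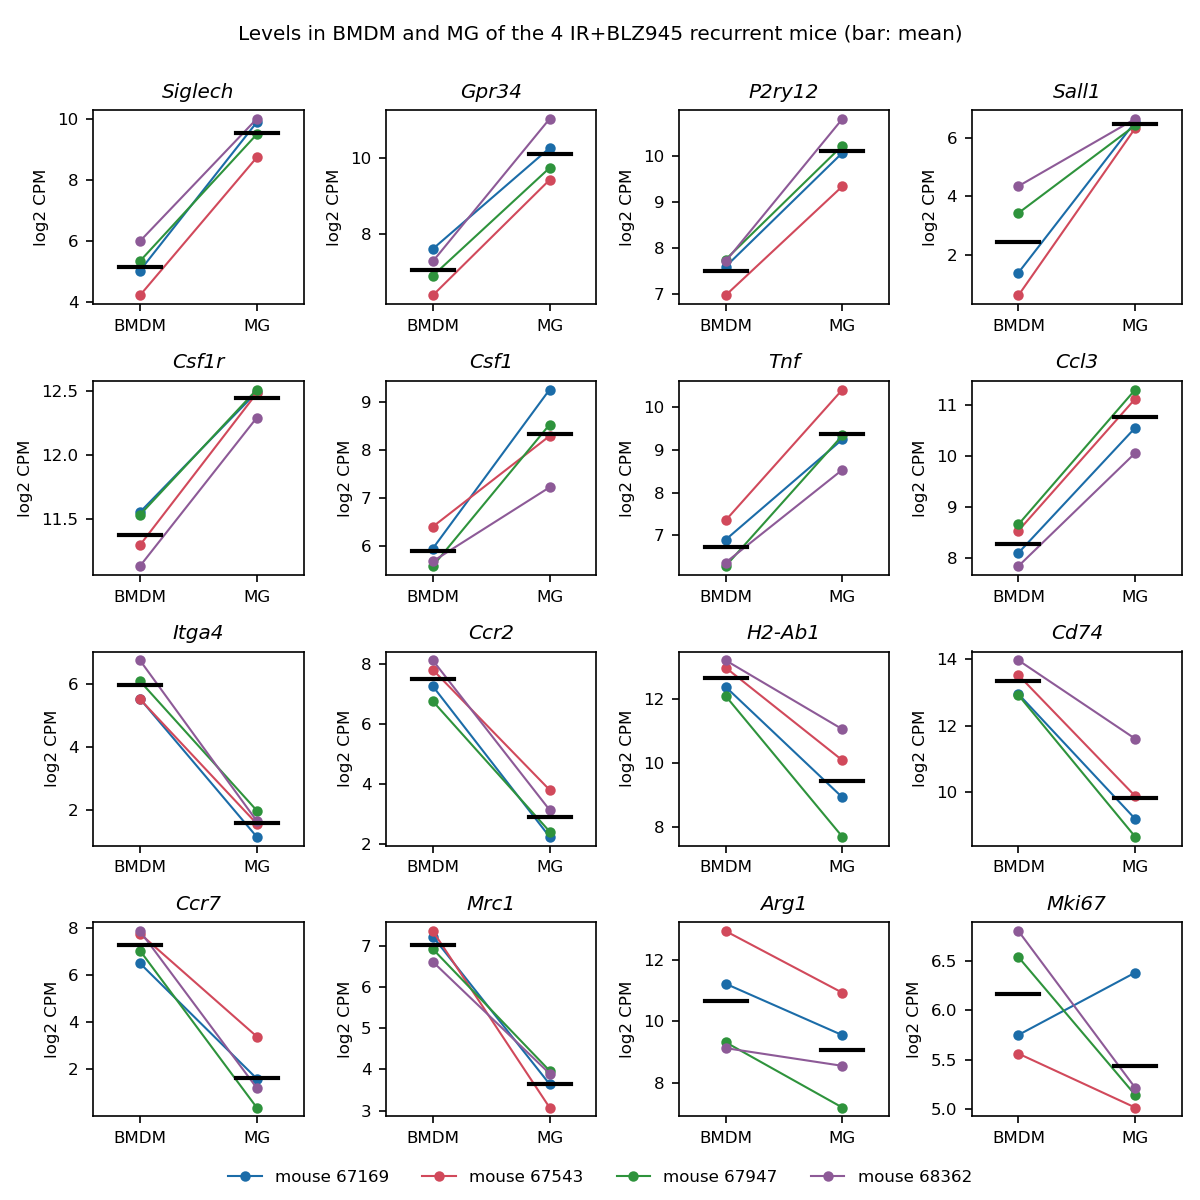
Levels (log2 CPM, vertical axes scaled to each gene) of 16 genes in the BMDM and MG libraries of the 4 recurrent IR+BLZ945 mice, with a line joining the libraries of a mouse and a black bar at the group mean. The lines run upward in all mice for Siglech, Gpr34, P2ry12, Sall1, Csf1r, Csf1, Tnf and Ccl3 and downward for Itga4 to Arg1, while those of Mki67 cross.

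Genes of antigen presentation by MHC class II were on the BMDM side. Of 11 class II genes, 8 were lower in MG and none higher (median -3.21). Cd74, the invariant chain that guards the peptide groove, stood at 9.18, 9.87, 8.64 and 11.60 in MG and at 12.95, 13.52, 12.92 and 13.97 in BMDM. H2-Ab1, a chain of the peptide-binding dimer, stood at 8.92, 10.08, 7.70 and 11.04 against 12.36, 12.96, 12.08 and 13.19. No MG library reached the BMDM libraries, with differences of -3.53 ± 0.45 for Cd74 and -3.21 ± 0.45 for H2-Ab1 (adjusted p = 5.66e-05 and 0.000122), yet MG themselves ranged widely and mouse 68362 was the highest in both. H2-Aa, H2-Eb1 and H2-DMb2, a chain of the peptide-loading dimer H2-DM, differed by -3.40 ± 0.49, -3.61 ± 0.48 and -3.05 ± 0.38. Ciita, the coactivator of these genes, stood at 1.88, 4.23, -0.33 and 2.65 in MG and at 5.71, 6.14, 5.91 and 7.55 in BMDM (-4.16 ± 0.85, adjusted p = 0.00404). H2-DMb1, another chain of H2-DM, was lower by a smaller amount (-0.90 ± 0.24), passing neither without the mouse block nor without any 1 of the 4 mice, and H2-DMa (-0.53 ± 0.25), H2-Oa (-1.03 ± 0.35) and H2-Ob (-0.23 ± 0.50) did not pass. Ciita, H2-Aa and these 4 genes are named after their values were seen.

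The last 120 bases before the start site are shown for 4 class II genes on chromosome 17, of which H2-Aa and H2-Eb1 were lower in MG and H2-Oa and H2-Ob did not pass, because class II genes are known for a shared promoter layout. They are RefSeq sequences of GRCm38.p6, at chr17:34287824-34287943 (minus strand) for H2-Aa and, on the plus strand, at chr17:34305747-34305866 for H2-Eb1, chr17:34092259-34092378 for H2-Oa and chr17:34238785-34238904 for H2-Ob. Capitals mark the core of the Y box, ATTGG, and a core of the half-site read by RFX, GCAAC, on either strand.
H2-Aa: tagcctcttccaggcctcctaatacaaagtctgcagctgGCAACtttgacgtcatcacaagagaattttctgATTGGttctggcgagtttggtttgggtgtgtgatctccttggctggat
H2-Eb1: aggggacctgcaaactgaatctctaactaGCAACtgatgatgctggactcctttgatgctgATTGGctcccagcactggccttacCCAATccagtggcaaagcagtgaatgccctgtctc
H2-Oa: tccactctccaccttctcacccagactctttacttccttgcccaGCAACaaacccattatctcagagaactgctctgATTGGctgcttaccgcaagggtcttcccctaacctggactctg
H2-Ob: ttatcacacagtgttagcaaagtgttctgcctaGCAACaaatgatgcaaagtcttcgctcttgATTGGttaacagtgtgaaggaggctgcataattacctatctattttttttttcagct

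In the sequences, GCAAC began 33 bases before ATTGG in H2-Aa and H2-Oa, 32 bases before it in H2-Eb1 and 30 bases before it in H2-Ob. The layout, with GCAAC starting 10 to 35 bases before ATTGG on the same strand, was found in 5 of 9 promoter windows of 8 matched class II genes (55.6%) and in 1.22% of 32851 windows of the genome, each from 250 bases before to 50 after a start. ATTGG alone was in 88.9% of the class II windows and 37.4% of all, and GCAAC alone in 66.7% and 35.2%. H2-Ab1, Cd74 and Ciita were not matched. The layout was thus present both in genes with a large difference and in genes whose difference did not pass. It was absent from the windows of H2-DMb2, which had a large difference, and from those of H2-DMb1 and H2-DMa. These matches describe letters and not binding.

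MHC class I genes showed no such count. With edgeR, 0 of 12 class I genes passed (3 at an unadjusted p under 0.05, and 1 with DESeq2), and the median difference was 0.11. B2m, the light chain of class I molecules, stood at 12.57, 12.20, 13.34 and 13.75 in MG and at 12.10, 11.99, 12.12 and 11.97 in BMDM. The libraries did not overlap, but the difference of 0.92 ± 0.29 missed the threshold (adjusted p = 0.0741). Among 15 costimulatory and checkpoint genes, Lag3 (2.80 ± 0.52), which also belongs to the microglia list, and 4632428N05Rik (0.99 ± 0.27), the gene of the checkpoint protein VISTA, were higher in MG. Pdcd1lg2, a ligand of PD-1 (-2.67 ± 0.66), and Cd80, a ligand of CD28 (-1.96 ± 0.50), were lower. Of these 4, the number that passed was 2 without mouse 67169 and 1 without any 1 of the other mice.

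Genes of dendritic cells were also on the BMDM side, where 6 of 12 were lower in MG and none higher (median -2.65). Ccr7, the receptor that guides cells to lymph nodes, stood at 1.61, 3.39, 0.39 and 1.22 in MG and at 6.49, 7.74, 7.03 and 7.86 in BMDM (-5.59 ± 0.81, adjusted p = 0.00015). The growth factor receptor Flt3 differed by -4.45 ± 0.57, Cd209a by -5.66 ± 0.76 and the integrin Itgae by -4.23 ± 0.85, all with no overlap. The dendritic list summed to 70.0 to 241.2 CPM in MG and 248.9 to 674.7 CPM in BMDM, and none of its genes was at 0 in either population. A CD45+CD11b+ sort can hold dendritic cells, and their part in the class II difference was not tested. Xcr1, a receptor of dendritic cells that cross-present antigen, stood at 4.82 in BMDM of mouse 68362 and between 2.17 and 2.48 in the other BMDM libraries (-1.08 ± 0.93, adjusted p = 0.698).

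Some markers of other cells moved the same way. Of 12 genes of border-associated macrophages, the macrophages of the meninges and vessels, 5 were lower in MG, including the mannose receptor Mrc1 (-3.38 ± 0.57), the transglutaminase F13a1 (-3.83 ± 0.44), Ms4a7 (-3.59 ± 0.60) and the scavenger receptor Stab1 (-1.35 ± 0.29, not passing without mouse 67947). The other 7 border-associated genes did not pass. Members ranged from -3.83 to 2.55, with a median of -1.86, and Cd209f was at 0 counts in BMDM. The list summed to 418.6 to 661.0 CPM in MG and 1130 to 3494 CPM in BMDM. Of 8 genes of Ly6C-high monocytes, 5 were lower, with sums of 13.25 to 57.95 CPM in MG and 170.9 to 507.0 CPM in BMDM, although the gate removed Ly6C+ cells. The count of 5 was 2 without the mouse block and 3 with the Lars2 term or without mouse 67169 or 68362. Ly6c2 itself was low, at 52 counts in all MG and 402 in all BMDM libraries (-3.23 ± 1.12, adjusted p = 0.12).

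For T and NK cells, 0 of 14 genes passed with edgeR (6 at an unadjusted p under 0.05, 2 with DESeq2, 2 without the mouse block and 5 without the doubted mice). The list summed to 1.432 to 8.331 CPM in MG and 7.586 to 125.8 CPM in BMDM, with Cd8a at 0 counts in MG. Its mean level in BMDM was -1.52, -1.61, -0.66 and 2.63, so that mouse 68362 stood above the others, the mouse whose BMDM also had the high Igj and Xcr1. Among 7 B cell genes, 0 passed with edgeR (4 at an unadjusted p under 0.05, 0 with DESeq2), with sums of 10.57 to 13.11 CPM in MG and 18.71 to 41.95 CPM in BMDM and with Blk and Faim3 at 0 counts in MG. Pax5, which is on the list but was too low to be tested, was at 0 counts in MG too. For 9 neutrophil genes, 0 passed with edgeR (4 at an unadjusted p under 0.05, 1 with DESeq2), with sums of 266.1 to 375.1 CPM in MG and 162.0 to 232.5 CPM in BMDM. The sums were higher in MG, but the mean log2 difference over the list was -0.627, -0.277, -0.185 and -1.141. Members differed by -2.79 to 3.59, with a median of 0.07, so the list had no common direction. The part of dendritic, border-associated, monocytic or lymphoid cells in the BMDM libraries was not tested.

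Of 13 genes of glioma and oligodendrocyte precursors, 1 was higher in MG, against 1.87% of all genes tested, and it was Pdgfb. The virus delivers a PDGFB, and whether its transcripts are counted under this symbol was not tested. Pdgfb stood at 5.62, 5.66, 6.44 and 4.82 in MG and at 4.18, 3.45, 4.71 and 3.94 in BMDM (1.57 ± 0.37, adjusted p = 0.0139) and passed neither with the Lars2 term nor without mouse 67169, 67543 or 67947. The list summed to 129.9 to 485.2 CPM in MG and 63.09 to 291.2 CPM in BMDM, with a median difference of 1.33. Of 10 astrocyte genes 1 was higher, the glutamate transporter Slc1a3 (4.13 ± 0.77), again against 1.87% of all genes tested. The astrocyte list summed to 400.2 to 648.2 CPM in MG and 89.68 to 153.0 CPM in BMDM. Its median difference was 0.46, its members ranged from -1.49 to 4.13, and 2 had an unadjusted p under 0.05. Of 8 neuronal genes 0 passed with edgeR (0 at an unadjusted p under 0.05, 0 with DESeq2), with sums of 17.17 to 22.53 CPM in MG and 5.281 to 13.55 CPM in BMDM. Of 7 genes of myelinating oligodendrocytes 0 passed (1 at an unadjusted p under 0.05, 0 with DESeq2), with sums of 204.1 to 265.4 CPM in MG and 188.7 to 212.7 CPM in BMDM. The part of these cells in the differences was not tested.

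**Figure D3:**
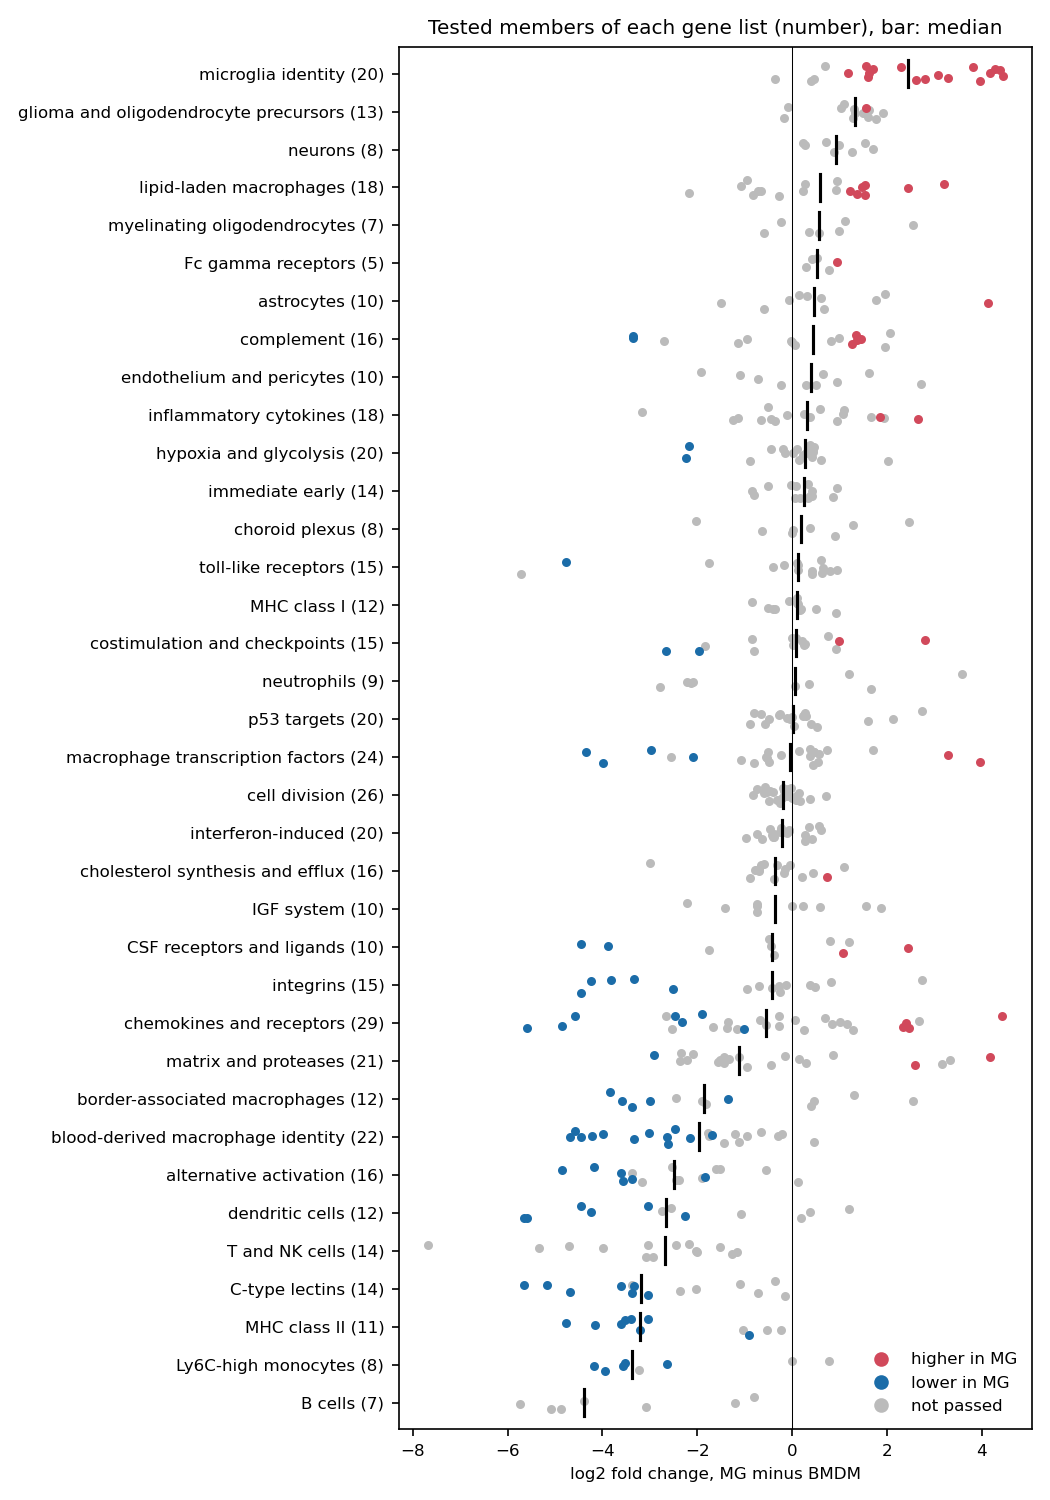
Log2 fold change of MG minus BMDM (horizontal axis) for each tested member of 36 gene lists, ordered by the list's median (black bar), with the number of members in brackets. Red members were higher in MG, blue lower, and grey did not pass; all 16 called members of the microglia list are red, and all called members of the MHC class II, dendritic and C-type lectin lists are blue.

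Some ligands and receptors of inflammation differed between the populations, in both directions. Of 18 inflammatory cytokine genes (median 0.32), Tnf and Il1a were higher in MG, none was lower and 16 did not pass. Of all genes tested 1.87% were higher. Tnf stood at 9.24, 10.40, 9.33 and 8.53 in MG and at 6.90, 7.35, 6.28 and 6.36 in BMDM (2.66 ± 0.44, adjusted p = 0.000631). Il1a stood at 11.58, 11.38, 11.46 and 10.93 against 9.78, 9.86, 9.38 and 8.95 (1.84 ± 0.26, adjusted p = 0.000131), with no overlap for either. Il1b, which acts on the same receptor as Il1a, overlapped, at 10.53, 10.40, 11.82 and 8.99 in MG and 10.96, 11.35, 11.18 and 10.02 in BMDM (-0.45 ± 0.38, adjusted p = 0.699).

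Of 29 chemokine and receptor genes, 4 ligands were higher in MG. Ccl3 (2.47 ± 0.33) and Ccl4 (2.41 ± 0.36) encode chemokines that attract leukocytes, and Cxcl13 (4.42 ± 0.93) encodes a ligand for B cells. Ccl12, a ligand of Ccr2, stood at 11.35, 11.51, 11.52 and 12.08 in MG and at 9.65, 9.66, 8.51 and 9.32 in BMDM (2.33 ± 0.50) and did not pass without mouse 67947 or 68362. Cxcl13 itself differed between mice, at 6.84, 7.16, 9.56 and 9.23 in MG and 2.22, 2.20, 5.53 and 5.12 in BMDM, so that mice 67947 and 68362 were high in both populations, and it did not pass without the mouse block. The 7 genes lower in MG were the receptors Ccr7, Ccr2, Ccr1 and Cxcr4 and the ligands Ccl22, Cxcl14 and Cxcl16. Ccl22, a ligand that attracts regulatory T cells, stood at 1.14, 1.50, -0.33 and 1.28 in MG and at 4.80, 6.34, 4.85 and 6.76 in BMDM (-4.84 ± 0.75, adjusted p = 0.000306).

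Of 16 genes tied to alternative activation, 6 were lower in MG and none higher (median -2.48), and the number was 12 without the doubted mice. Besides Mrc1 and Ccl22 they included Chi3l3 (now Chil3, a secreted chitinase-like protein; -4.18 ± 0.80, not passing without the mouse block) and the crosslinking enzyme Tgm2 (-1.84 ± 0.26). Arg1, which breaks down arginine, varied widely between mice. It stood at 9.55, 10.93, 7.19 and 8.55 in MG and at 11.22, 12.94, 9.32 and 9.13 in BMDM, highest in both populations of mouse 67543. MG were lower in each mouse, but the groups overlapped and the difference of -1.61 ± 0.53 did not pass (adjusted p = 0.0917). Of 14 C-type lectins, 7 were lower in MG, among them Clec4n (-3.33 ± 0.56), which binds fungal mannans. Of 15 toll-like receptor genes (median 0.13) 1 was lower, the RNA sensor Tlr8 (-4.76 ± 0.84), against 2.78% of all genes tested.

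Complement and lipid genes were partly on the MG side. Of 16 complement genes, 4 were higher in MG and 2 lower. C1qa, C1qb and C1qc, the chains of the first component, differed by 1.44 ± 0.33, 1.37 ± 0.28 and 1.26 ± 0.30. C1qb stood at 13.58, 13.24, 13.95 and 13.62 in MG and at 12.70, 12.30, 12.35 and 11.55 in BMDM, with no overlap. Cfp, the positive regulator properdin (-3.35 ± 0.51), and Cd93 (-3.36 ± 0.58) were lower. The higher genes were less stable, as 1 of 4 passed without mouse 67947 or with the Lars2 term and 0 passed without mouse 68362, while both lower genes passed in each of these fits.

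Of 18 genes of lipid-laden macrophages, a state of debris uptake, 7 were higher in MG (Cst7, Csf1, Ctsd, Trem2, Cd9, Ctsl and Tyrobp), and 3 were without mouse 67947, without mouse 68362 or with the Lars2 term. The mean difference over the list was -0.07, -0.11, 0.82 and 1.25, so that it leaned to MG only in mice 67947 and 68362. Cst7, a protease inhibitor, stood at 8.77, 7.62, 9.61 and 8.65 in MG and at 6.14, 5.56, 5.33 and 4.86 in BMDM (3.20 ± 0.62, adjusted p = 0.00267). Trem2, a lipid receptor, differed by 1.53 ± 0.39, the protease Ctsd by 1.53 ± 0.32 and the tetraspanin Cd9 by 1.48 ± 0.26. Apoe, the lipid carrier, overlapped and leaned the other way, at 13.10, 12.67, 14.85 and 13.37 in MG and 14.84, 14.53, 15.12 and 13.78 in BMDM (-1.07 ± 0.49, adjusted p = 0.294). Fcgr3, an activating Fc receptor, was the only one of 5 Fc gamma receptor genes to pass (0.95 ± 0.25), where 1.87% of all genes tested were higher. Fcgr3 did not pass without mouse 67543, 67947 or 68362, without the mouse block or with the Lars2 term.

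Csf1r, the gene of the receptor that BLZ945 inhibits, was expressed at a high level in both populations. It stood at 12.49, 12.48, 12.51 and 12.29 in MG and at 11.55, 11.29, 11.53 and 11.13 in BMDM. The MG libraries lay close together and above all BMDM libraries, with a difference of 1.07 ± 0.22 (adjusted p = 0.00471) that did not pass with the Lars2 term. The ligand Csf1 was higher in MG as well, at 9.27, 8.29, 8.53 and 7.22 against 5.94, 6.39, 5.57 and 5.67 (2.44 ± 0.55, adjusted p = 0.00925), but not without mouse 67169 or 67947. Of the 10 genes of this family, the receptor tyrosine kinases Flt3 and Kit (-3.88 ± 0.89) were lower in MG, and Kit did not pass without mouse 67947 or 68362. Igf1, a growth factor, overlapped at 6.17, 5.92, 5.75 and 6.68 in MG and 7.27, 6.80, 6.85 and 6.56 in BMDM (-0.75 ± 0.40, adjusted p = 0.405).

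Among 24 transcription factors of macrophages, Sall1 and Sall3 were higher in MG and 4 were lower. Ahr, the aryl hydrocarbon receptor, stood at 1.80, 2.04, 0.59 and 0.00 in MG and at 5.31, 5.57, 5.34 and 5.67 in BMDM (-4.35 ± 0.54, adjusted p = 4.07e-05). Runx3 (-2.98 ± 0.52), the lipid-sensing receptor Pparg (-3.98 ± 0.92, not passing without mouse 67543 or 67947) and Bhlhe40 were the others. The number called in this list was 3, 2 and 3 without mouse 67169, 67543 or 67947. Of 15 integrin genes 5 were lower, and besides the gate's Itga4 they were Itgae, Itgal, Itga9 (-3.34 ± 0.88) and Itgb7 (-3.82 ± 0.60), the partner chain of Itga4 and Itgae. The count of 5 was 3 without any 1 mouse. Vegfa, the angiogenic factor, and Pfkp, a glycolytic enzyme, were the 2 of 20 hypoxia and glycolysis genes that were lower in MG (-2.18 ± 0.45 and -2.24 ± 0.40). The median of that list was 0.26, and 2.78% of all genes tested were lower. Of 21 genes of the matrix and proteases (median -1.12), 2 were higher in MG, 1 was lower and 18 did not pass. Of all genes tested 1.87% were higher and 2.78% lower. The matrix protease Mmp14 was the lower one (-2.91 ± 0.47). Adamts1 was higher (2.60 ± 0.70), though not without mouse 67169, 67543 or 68362.

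Of 26 cell division genes, 0 passed at recurrence with edgeR (1 at an unadjusted p under 0.05, 0 with DESeq2), and the median difference was -0.18. MG were higher in all 4 mice in 2 of them, Cdk1 and Pcna, and lower in all 4 in 1, Aurkb (named after its values were seen). Cdk1, the kinase that starts mitosis, stood at 6.89, 7.22, 6.04 and 6.87 in MG and at 6.39, 6.23, 5.62 and 5.89 in BMDM, with overlapping ranges (0.72 ± 0.30, adjusted p = 0.218). Mki67 stood at 6.38, 5.02, 5.14 and 5.22 in MG and at 5.75, 5.56, 6.54 and 6.80 in BMDM, higher in MG in mouse 67169 and in BMDM in the other 3 (-0.74 ± 0.57, adjusted p = 0.654). The p53 target Cdkn1a, a cell cycle inhibitor induced by DNA damage, was close in each mouse, at 8.35, 8.82, 8.36 and 7.52 against 8.40, 8.92, 8.33 and 7.54 (-0.04 ± 0.21, adjusted p = 0.992). Of 20 p53 targets 0 passed (3 at an unadjusted p under 0.05, 3 with DESeq2), and of 20 interferon-induced genes 0 passed (0 at an unadjusted p under 0.05, 0 with DESeq2).

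The difference between the populations was then compared with that of other mice, to ask whether recurrence after the combined treatment had changed the distance between them. MG and BMDM of vehicle mice differed in 1400 genes (8.8%; 3.8% higher and 5.01% lower in MG), and 595 of the 739 genes called in IR+BLZ945 recurrence were called the same way there, or 80.5% of the 739 and 42.5% of the vehicle calls. In IR recurrence 358 genes (2.25%; 0.711% higher and 1.54% lower in MG) were called, of which 308 were called the same way in IR+BLZ945 recurrence, or 86.0% of those calls and 41.7% of the 739. With edgeR, the difference between the populations changed from vehicle in 0 genes (0%; 486 at an unadjusted p under 0.05, 39 with DESeq2 and 35 without the doubted mice) and from IR recurrence in 0 genes (0%; 436 at an unadjusted p under 0.05, 0 with DESeq2). A count of 0 does not show that the distances were equal. In vehicle mice 41, 78, 65966 and 65967, Lars2 stood at 12.12, 13.87, 6.15 and 6.90 in MG. In their BMDM it stood at 7.53, 7.76, 6.19 and 2.99. The part of Lars2 in the comparison with vehicle was not tested. For Siglech the vehicle difference was 4.25 and for Csf1r 1.64.

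The mean MG minus BMDM difference of the class II list was -2.53, -2.26, -3.06 and -2.08 in the 4 IR+BLZ945 recurrent mice, -4.05 to -2.97 in vehicle mice and -3.54 to -2.51 in IR recurrent mice. For the interferon-induced list it was 0.22, -0.49, 0.05 and -0.36 in IR+BLZ945 recurrence, -0.53 to -0.08 in IR recurrence and -1.51 to -1.07 in vehicle mice. No single gene of these lists passed the test of the difference from vehicle with edgeR.

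**Figure D4:**
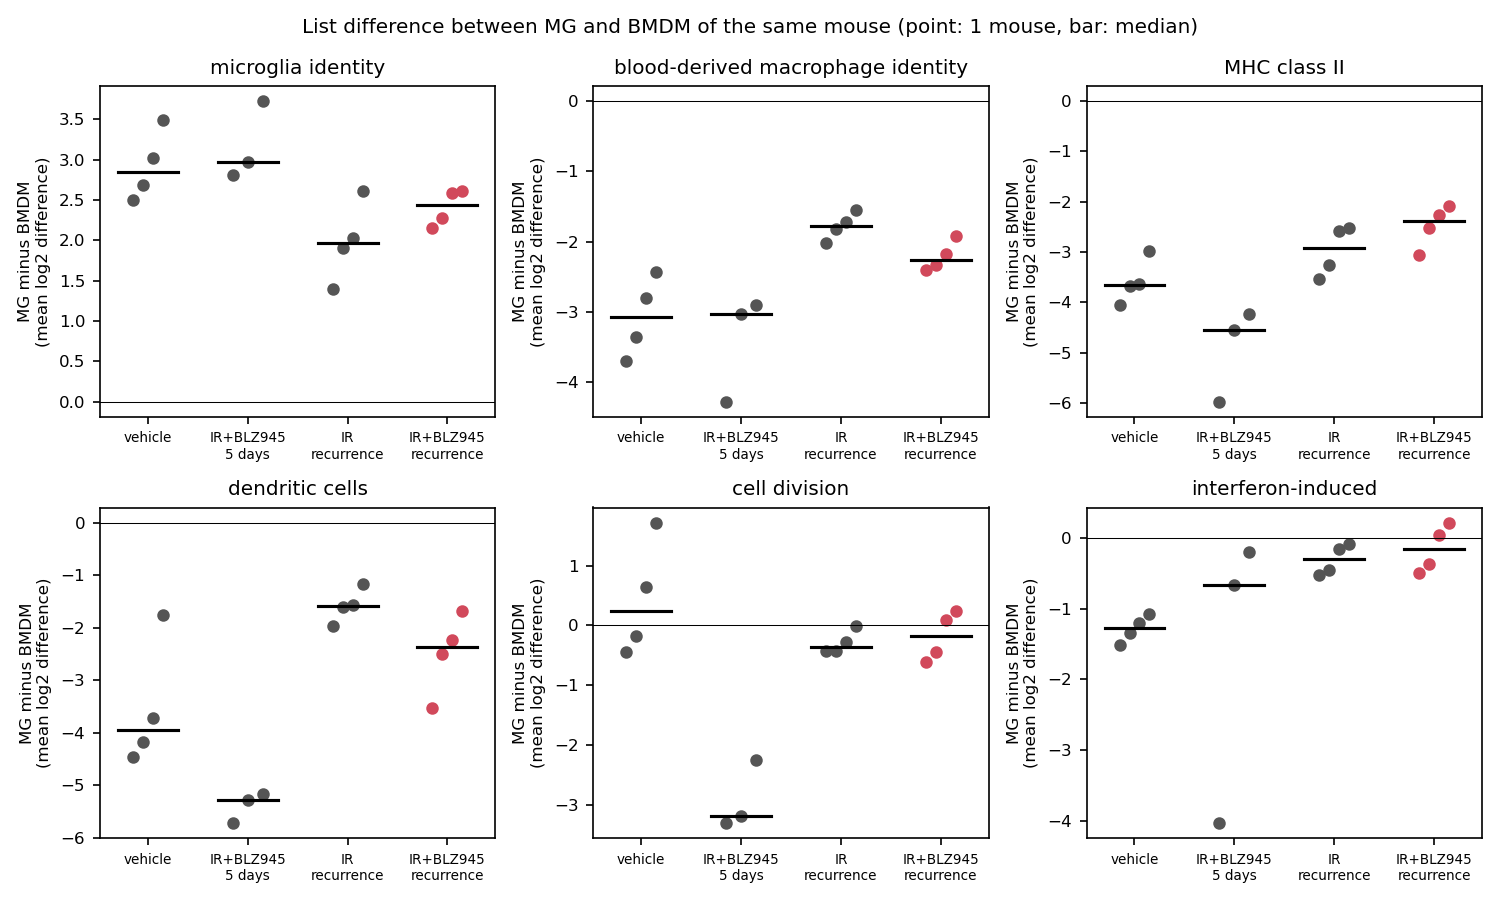
Mean log2 difference of MG minus BMDM over the members of 6 gene lists (vertical axes, scaled to each list), with 1 point for each mouse and a bar at the median of each of 4 stages; the 4 recurrent IR+BLZ945 mice are in red. The cell division list lies between -0.61 and 0.24 in those mice and between -3.31 and -2.25 in the 3 mice at 5 days.

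Against the 3 mice taken after 5 days of IR+BLZ945, the difference between the populations changed in 205 genes (1.29%), toward MG in 145 (0.912%) and toward BMDM in 60 (0.377%). Over all genes the median change was 0.12 on the log2 scale, and values below are given without removing it. Leaving out 1 mouse moved the count to between 87 and 209, with 87 without mouse 67947, 112 without 68362, 121 without 67543 and 123 without 65696. It was 43 when only the mice compared were fitted and 703 without the doubted mice, of which 343 were toward MG and 360 toward BMDM. Doubted mouse 65971, with 3007379 counts in its MG library, was 1 of the 3 mice at 5 days. Without it alone, 54.5% of the genes called changed toward MG where the share with all mice was 70.7%. Lars2 stood between 5.30 and 8.70 in the 6 libraries at 5 days and between 11.43 and 15.22 in the 8 recurrent libraries. The Lars2 term was fitted only for MG against BMDM in recurrence. Its part in the levels and changes between these 2 times was not tested.

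Cell division genes changed toward MG. After 5 days, 17 of 26 were lower in MG than in BMDM (at that time 7.19% of all genes were lower in MG, 3.92% higher and 11.1% either), in recurrence 0 were, and the change passed for 8, all toward MG (median change 2.88). Ccnb1, a mitotic cyclin named after its values were seen, stood at -2.35, 0.01 and -3.53 in MG of the 5-day mice and at 2.07, 4.42 and 2.20 in their BMDM. In recurrence Ccnb1 stood at 6.43, 6.72, 5.57 and 5.92 in MG and at 6.32, 6.04, 5.64 and 6.02 in BMDM, so that both populations were higher and the gap between them was 0.16 ± 0.38. The change of its difference was 5.45 ± 0.78 (adjusted p = 0.00123). Birc5, an inhibitor of apoptosis made in mitosis and also named afterwards, changed by 4.02 ± 0.97 (adjusted p = 0.0437) but did not pass without any 1 mouse other than 65696. The change also passed for Pbk, a mitotic kinase outside the list, with 2 counts in the 3 MG libraries at 5 days and 208 in BMDM. MG at 5 days had 4 counts of Ccnb1. For Birc5 they had 23 counts in mouse 65696 and 0 in mice 65971 and 67537. The fitted sizes for Ccnb1, Pbk and Birc5 thus depend on the prior count. The number of list members that passed was 4 without any 1 of the 4 recurrent mice, 5 without mouse 65696 or 67537, 1 when only the mice compared were fitted, 14 without the doubted mice and 15 with DESeq2. Levels of 5-day MG near -3.53 are those of 0 counts.

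**Figure D5:**
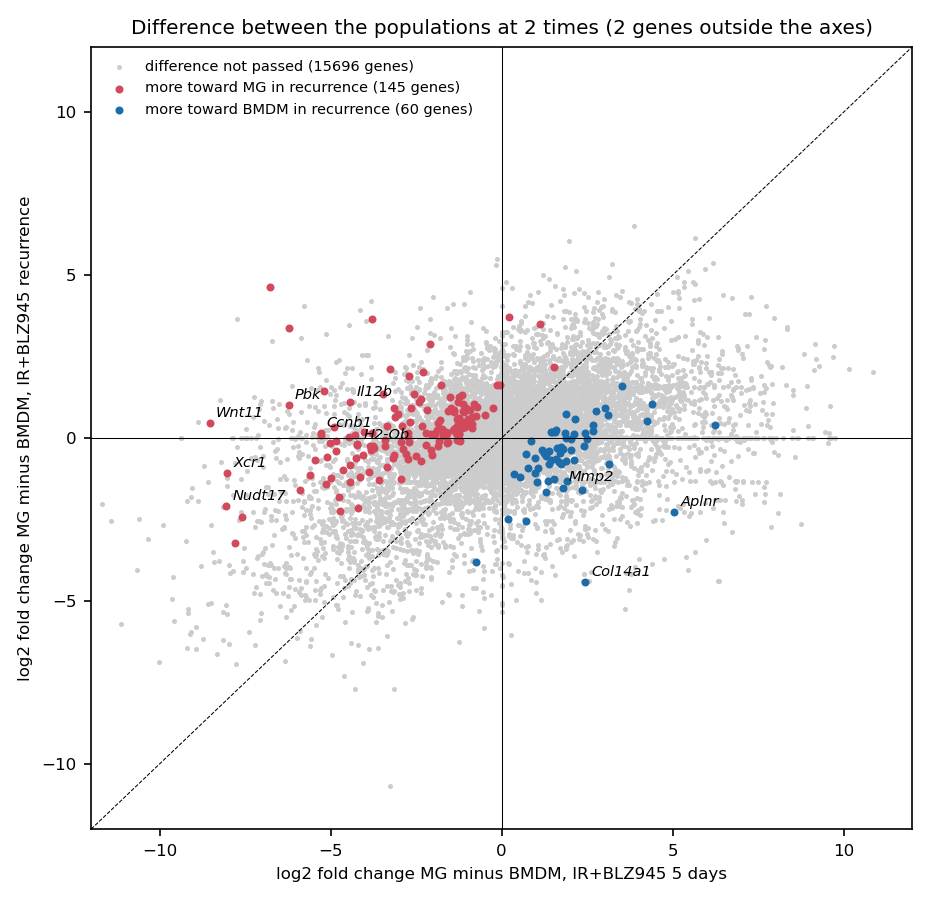
Log2 fold change of MG minus BMDM after 5 days of IR+BLZ945 (horizontal axis, 3 mice) against that in recurrence (vertical axis, 4 other mice) for each tested gene, with 2 genes outside the axes; the dashed line marks equal differences. Red genes changed toward MG (145) and blue genes toward BMDM (60); Ccnb1, Pbk and Xcr1 lie far to the left at 5 days and between -1.08 and 1.02 in recurrence.

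Of the 11 class II genes, 4 changed, all toward MG: H2-Oa (2.86 ± 0.55), H2-Ob (4.00 ± 0.84), H2-DMa (2.62 ± 0.39) and H2-DMb1 (2.44 ± 0.37). H2-DMb2 did not pass (1.79 ± 0.55, adjusted p = 0.113). H2-Ob stood at 5.01, -3.53 and 4.30 in MG and at 7.68, 8.08 and 7.72 in BMDM of the 5-day mice. The low value is that of 0 counts in the doubted mouse 65971, and without this mouse the change of H2-Ob was 2.75 (adjusted p = 0.00245). H2-DMa stood at 6.51, 5.40 and 5.94 in MG and at 9.19, 9.14 and 9.02 in BMDM of the 5-day mice. In recurrence it stood at 8.24, 7.59, 7.92 and 8.56 in MG and at 8.77, 8.82, 8.09 and 8.78 in BMDM, so that MG were above all 5-day MG and BMDM below all 5-day BMDM. The change had an adjusted p of 0.00149. For H2-Ab1, which binds the peptide, the difference was -5.27 at 5 days and -3.21 in recurrence, and the change of 2.07 ± 0.64 did not pass (adjusted p = 0.116). The count of 4 was 2 when only the mice compared were fitted, and H2-Ob did not pass without mouse 67947.

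Of the 12 dendritic cell genes 3 changed, all toward MG: Xcr1, Batf3 and Fscn1. Xcr1 stood at 6.10, 6.06 and 6.44 in BMDM of the 5-day mice and at 2.31, 2.48, 2.17 and 4.82 in BMDM of the recurrent mice, and in MG at -3.53, -0.52 and -0.95 against 2.48, 1.80, 1.34 and 1.78 (6.94 ± 1.64, adjusted p = 0.0335). Xcr1 did not pass without any 1 mouse other than 68362. The list count was 1 without mouse 65696, 67537, 67169, 67543 or 67947. Il12b, a subunit of interleukin-12, changed by 5.53 ± 0.98 (adjusted p = 0.00462): BMDM stood at 7.26, 8.68 and 8.10 at 5 days and at 2.77, 3.50, 4.46 and 4.58 in recurrence, while MG stood at 2.10, 6.16 and 2.61 and at 5.07, 5.40, 5.65 and 3.28.

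In the microglia list 4 genes changed toward BMDM (Tgfbr1, Fcrls, Cx3cr1 and P2ry13) and 1 toward MG (Selplg, 1.77 ± 0.30). Cx3cr1 stood at 7.75, 6.82 and 7.93 in BMDM at 5 days and at 9.81, 9.12, 10.05 and 9.64 in recurrence, while MG stood at 10.83, 10.18 and 10.78 and at 10.52, 9.94, 10.58 and 10.36. The MG ranges overlapped and the BMDM ranges did not, and the change was -2.40 ± 0.44 (adjusted p = 0.00566). Csf1r differed by 2.30 at 5 days and by 1.07 in recurrence, and the change of -1.23 ± 0.34 did not pass (adjusted p = 0.0738). Its BMDM level was 9.93, 9.62 and 10.04 at 5 days and 11.13 to 11.55 in recurrence. The count of 5 in this list was 3 without mouse 65971, without mouse 67947 or without the mouse block, 2 when only the mice compared were fitted and 8 with DESeq2.

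Toward BMDM the ranking by fitted size named Aplnr, the apelin receptor (-7.32 ± 1.77), Col14a1, a fibril-associated collagen (-6.86 ± 1.48), Rapgef5 (-3.74 ± 0.68), the potassium channel Kcnj2 (-3.34 ± 0.79) and the gelatinase Mmp2 (-3.31 ± 0.69). Col14a1 stood at -0.17, -1.65 and -1.03 in BMDM at 5 days and at 7.18, 6.80, 6.77 and 5.75 in BMDM of recurrent tumours, with MG at 1.39, -1.35 and 2.65 and at 2.93, 1.95, 2.28 and 1.74. BMDM of recurrent tumours were thus above all 5-day BMDM, and the MG ranges overlapped. Mmp2 stood at 4.04, 4.90 and 4.45 in BMDM at 5 days and at 6.53, 6.41, 7.72 and 6.43 in recurrence, while MG stood at 6.65, 5.94 and 6.16 and at 4.95, 5.57, 5.91 and 4.60. Toward MG the ranking by fitted size named Wnt11, a secreted signalling protein, Pbk, Xcr1, the hydrolase gene Nudt17 (5.97 ± 1.17) and Il12b. In MG at 5 days Wnt11 had 1 count, Xcr1 7 and Nudt17 16 over the 3 libraries, against 499, 2251 and 4123 in BMDM. Aplnr had 0, 46 and 0 counts in BMDM at 5 days, in mice 65696, 65971 and 67537, against 25, 209 and 34 in MG. The fitted sizes of such genes depend on the prior count, and no order is read from them. Wnt11 stood at -3.53, -3.53 and -2.54 in MG at 5 days, and at 4.24, 3.53 and 4.25 in their BMDM, while in recurrence both populations lay between -0.63 and 0.83. Of these 10, Aplnr did not pass without any 1 mouse other than 65971, nor without the mouse block, and Col14a1 did not pass without mouse 65696, 67537 or 67947. Kcnj2 did not pass without 65971, 67537 or any recurrent mouse nor without the mouse block, Mmp2 without 65696, 67537, 67947 or 68362, Pbk without 65696 or 67537, and Nudt17 and Wnt11 without 65696.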

How the data were processed

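The authors deposited raw read counts per gene symbol, 23329 symbols in 46 libraries. Per the labels' protocols sorted cells went into TriZOL and a Smart-Seq kit was used for the libraries. The submitters' processing notes name CASAVA 1.8, STAR 2.5.0e, HTSeq, DESeq2 and mm10. For the counting, annotation and strand setting are not given in the sources used here; overlapping genes and near-identical copies may share counts. The kit carries no molecular identifiers. The 46 libraries held 3007379 to 16993474 counts.

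Counts were analysed with edgeR 4.0.16 in R 4.3.3: TMM scaling, filterByExpr (minimum count 10, minimum total 15), and 1 quasi-likelihood fit of all libraries with the mouse as a block and an MG minus BMDM coefficient for each of 7 stages (16 residual degrees of freedom, common biological coefficient of variation 0.518). Adjusted p under 0.05 was called. Levels are log2 CPM on TMM-scaled totals with a prior count of 1. The pairing comes from the labels, where a mouse number is 1 animal; deviations of the libraries of a mouse correlated at 0.0718, 0.224, 0.442 and 0.179. No replicate pair agreed within sampling noise (lowest chi-square per degree of freedom 35.4). The code was tested on simulated data.

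Named genes were, for MG against BMDM, the 10 largest differences in each direction among called genes with no overlap and a mean of at least 3 log2 CPM in 1 population; for each test of a change, the 5 largest in each direction; up to 4 called members of each list, or 2 where none passed; and a few followed throughout. Further genes were named after their values were seen, and 1 called complement gene is not reported here. Clone names and pseudogenes were passed over, and clone names of the Ertd kind were recognised as such only after the output was seen. The members and all 36 lists were chosen with earlier results of these data known. Of 494 list genes, 3 were not found and 487 were tested. Alternatives were DESeq2 1.42.0, RLE scaling, no filter, no block, only the mice compared, without 5 doubted mice (a library under 11000 genes with 10 or more counts, or libraries of a mouse that do not match in sex-linked genes), without each mouse and, added after seeing the data, a Lars2 term. Promoter windows are RefSeq sequences of GRCm38.p6.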

Additional observations from a re-analysis of the deposited data

Results flagged for a closer look

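Among 144 named genes, the MG minus BMDM difference of 1 mouse stood apart from those of the other 3 in 3 genes, where chance alone gives about 1 in 20. For Ramp3 it was -7.21 in mouse 67947, whose MG had 0 counts, and -4.79 to -4.47 in the others. For Cd8a, a T cell gene, it was -6.96 in mouse 68362 and -2.41 to -1.48 in the others. For P2ry12 it was 3.10 in mouse 68362 and 2.37 to 2.48 in the others.

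The difference between the populations changed from 5 days of IR+BLZ945 to recurrence in 22 named genes by the test of the change itself. Toward MG the changes were 8.99 for Wnt11, 7.25 for Pbk, 6.94 for Xcr1, 5.97 for Nudt17, 5.53 for Il12b, 5.45 for Ccnb1, 4.02 for Birc5, 4.00 for H2-Ob, 2.86 for H2-Oa, 2.62 for H2-DMa, 2.49 for Pfkp, 2.44 for H2-DMb1, 2.03 for Lsp1 and 1.77 for Selplg. Toward BMDM they were -7.32 for Aplnr, -6.86 for Col14a1, -3.74 for Rapgef5, -3.34 for Kcnj2, -3.31 for Mmp2, -2.40 for Cx3cr1, -2.38 for Stab1 and -1.16 for Mylip. In MG at 5 days Wnt11 had 1 count, Pbk 2, Ccnb1 4 and Xcr1 7. Birc5 was at 0 counts in 2 of the 3 MG libraries at 5 days, and Aplnr in 2 of the 3 BMDM libraries. These fitted sizes thus depend on the prior count and are not bounds. Ccnb1, Selplg, H2-Oa, H2-DMa, Stab1 and Cx3cr1 passed under every alternative run for this change, and the other 16 missed the threshold under at least 1.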

How the results depend on the processing

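Of the 205 genes whose difference changed since 5 days, 204 kept their sign with DESeq2, with only the mice compared, without the doubted mice and without mouse 67169, 67543 or 65971, and 205 in the other fits. Genes called in MG against BMDM (739) numbered 1532 with DESeq2, 3356 with only the mice compared, 2107 without the doubted mice, 397 with the Lars2 term and 342 to 479 without 1 mouse, and 759, 635 and 701 with RLE scaling, no filter and no replicate block; the fit without the mouse block kept 610 of the 739. The change from vehicle (0) gave 39 with DESeq2, 7 with only the mice compared and 35 without the doubted mice. The change from IR recurrence (0) gave 10 with only the mice compared. The change from 5 days (205) gave 1166 with DESeq2, 43 with only the mice compared (32 of them among the 205), 703 without the doubted mice, 87 to 209 without 1 mouse and 158 without the mouse block. The share toward MG was 70.7%, and 48.8% without the doubted mice (343 toward MG and 360 toward BMDM), so that the majority turned. The causes were not tested. Of 144 named genes, 9 lost their call without the block, 22 with the Lars2 term and 15 to 24 without 1 mouse.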

Other observations

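Further members of the gene lists changed between 5 days and recurrence, named here after their values were seen. Toward MG changed Psmb8 (1.25 ± 0.31, edgeR adjusted p = 0.048) and Psmb9 (1.82 ± 0.33, adjusted p = 0.00506), subunits of the immunoproteasome that cuts peptides for MHC class I. Psmb9 averaged 5.70 in MG and 7.39 in BMDM at 5 days and 7.04 in MG and 6.93 in BMDM in recurrence. The 5-day means in this section include doubted mouse 65971. In that mouse the mean difference of the MHC class I list was -2.31, against -0.84 in mouse 65696 and -0.95 in mouse 67537. Whether the changes named in this section pass without mouse 65971 is not given here. Tnfsf9, the ligand of the costimulatory receptor 4-1BB, changed by 4.07 ± 0.71 (adjusted p = 0.00428), and Ccl5, a chemokine for T cells, by 3.03 ± 0.74 (adjusted p = 0.0423).

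Toward BMDM changed C3ar1, the receptor of a complement fragment (-1.90 ± 0.31, adjusted p = 0.00281), Tlr4, the endotoxin receptor (-1.98 ± 0.36, adjusted p = 0.00506), and Abca1, a cholesterol exporter (-2.76 ± 0.58, adjusted p = 0.0159). Abca1 averaged 9.94 in MG and 7.84 in BMDM at 5 days and 8.54 in MG and 9.21 in BMDM in recurrence. Stab1 stood at 6.96, 7.14 and 6.90 in BMDM of the 5-day mice and at 9.32, 9.45, 9.52 and 8.28 in BMDM of the recurrent mice, with MG at 7.68, 8.06 and 8.36 and at 7.89, 8.31, 7.55 and 7.43. Its BMDM ranges did not overlap and its MG ranges did.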
